A study of Mus musculus with 8 samples.

Results

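The cytosolic ribosomal protein genes were described by RNA-seq in RAW macrophages, a long-used mouse cell line with macrophage features. Members were taken by symbol: Rpl or Rps followed by digits and then nothing, a, x, l, l1 or al, together with Rplp0, Rplp1, Rplp2 and Rpsa. Symbols of pseudogenes (ending in -ps and a number) were left out. The rule found 84 genes among the 24421 genes of each full table, 52 of the large and 32 of the small subunit. One group was left untreated (ctl). Another received methyl-β-cyclodextrin (MCD, a ring of sugars that pulls cholesterol out of membranes) at 5 mM over 1 h. The LPS group received lipopolysaccharide (LPS, the bacterial product sensed by the receptor TLR4) at 100 ng/ml over 3 h, and in the last (MCD-LPS) the MCD was washed out before the LPS. Each group had 2 libraries, and all 4 groups are of the same line with no genetic change. The labels do not state whether the 2 libraries of a group are separate cultures. The p-values rest on the spread between such libraries, and that spread may be technical.

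A eukaryotic ribosome is built from ribosomal RNA and 1 copy of most of its proteins, which join the RNA in the nucleolus and form a large and a small subunit. The genes for these proteins are scattered over the genome and are transcribed at high rates in growing cells, and their mRNAs are among the shortest and most abundant of the cell. Most of these mRNAs begin with a C and a run of pyrimidines, the terminal oligopyrimidine (TOP) motif, through which the kinase mTOR and the protein Larp1 control how well they are translated. RNA-seq measures the amount of these mRNAs and not their translation.

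The start sequences of the genes that the comparisons below turn on are shown first, since a pyrimidine run near the start is known from many mRNAs of the family. RefSeq promoter entries (build GRCm38.p6) matched 63 of the 84 genes. Capitals mark the longest run of C and T that begins with a C within 20 bases of an annotated start, where it has at least 6 bases. Each window of 30 bases begins 5 bases before that run, or 10 bases before the annotated start where there is no such run.
Rpl35a, chr16:33056472-33056501, plus strand: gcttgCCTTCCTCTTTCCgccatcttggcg
Rps15a, chr7:118116138-118116167, minus strand: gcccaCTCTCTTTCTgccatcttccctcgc
Rps12, chr10:23787177-23787206, minus strand: gccggCCTTTTCCCCTgccgccgccgactt
Rps27l, chr9:66946069-66946098, plus strand: ctccaCTCCTCCCCgccgcctctatcccgg
Rpl39, chrX:37085218-37085247, minus strand: tccatCCCCCCCTaagctccgcctctagcg
Rps21, chr2:180257372-180257401, plus strand: acccgCCCTCCTgcccaatagtgctgcgga
Rpl12, chr2:32961709-32961738, plus strand: tccgtCTTTTCggctttcggctcggaggag
Rpl4, chr9:64173365-64173394, plus strand: caagtCTTTCCTTTTCCTgtgggagcagcc
Rps25, chr9:44407704-44407733, plus strand: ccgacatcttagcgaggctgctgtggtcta
Rps7, chr12:28635934-28635963, minus strand: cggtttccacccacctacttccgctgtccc
Rpl7l1, chr17:46782637-46782666, minus strand: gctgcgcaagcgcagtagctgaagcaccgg

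The first 8 of these windows hold a run and the last 3 do not. The runs of Rps15a, Rps27l, Rpl39 and Rpl4 lie wholly before the annotated start. They begin at -15, -12, -20 and -17 relative to it, so they are not part of an mRNA that begins there. Those of Rpl35a and Rps21 span the start, and those of Rps12 and Rpl12 begin after it. Over the family, 41 of 63 genes had a run of at least 6 bases (65.1%), against 35.6% of the 8909 other tested genes with an entry. A run of at least 8 bases was found in 49.2% of the family and 16.6% of the others. A C followed by 4 pyrimidines directly at an annotated start was found in 13 of 63 genes (20.6%), against 2.93% of the others and 3.01% of all 27025 entries. Within 250 bases before and 50 after the start, CCGGAAG, a core site of ETS factors, was present on either strand in 39.7% of the family and 21.2% of the others. AAGATGG, a core site of Yy1, was present in 15.9% and 8.7%, and CACGTG, the E-box read by Myc, in 9.52% and 12.1%. These are matches of letters and not bound sites.

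Depth was 38645458 to 48436956 reads in genes per library, and levels are given as CPM, the reads of a gene scaled to the library's reads in genes. A count of 0 corresponds to a limit between 0.0619 and 0.0776 CPM, set at 3 reads. Limits and intervals cover counting error only, because PCR copies were not marked by molecular identifiers. All 10 macrophage markers of the fixed list had reads, with a summed level of 10190 to 14582 CPM, while all 18 markers of other cell types averaged under 1 CPM (summed 0.456 to 2.34 CPM). Hmgcs1, Egr1 and Tnf are among the genes that the study lists as raised by MCD in its RNA-seq. They are therefore no independent check of the treatment. Hmgcs1, a cholesterol synthesis gene, rose with MCD by 1.26 on the log2 scale. The immediate early gene Egr1 and the cytokine gene Tnf rose by 3.37 and 3.30 (limma, Benjamini-Hochberg adjusted p under 0.05 for each of these genes). For LPS, which was not tested, Tnf had 74.8 and 72.4 CPM in ctl and 712 and 1635 in LPS. Egr1 had 91.1 and 78.1 in ctl and 690 and 1458 in LPS, so the 2 LPS libraries were unequal in both. Over all genes, the SD of the log2 ratio between replicates was 0.277 for LPS and 0.197 to 0.215 for the other groups.

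The family took about 6% of all reads in genes. Most members lay within a narrow band of levels, and a few stood far below it. Levels between genes are given as CPM per kilobase of coding length, averaged over the 8 libraries. Among the 76 members with at least 5 CPM, the median was 1634 CPM per kilobase, and the middle 50% ran from 1245 to 1931. The small subunit members had a median of 1760 (30 genes) and those of the large subunit 1580 (46 genes).

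The highest member was Rpl41, which encodes the shortest ribosomal protein, at 7702 CPM per kilobase. This value rests on a coding length of 75 bases and counts reads over the whole transcript. Rplp1, an acidic protein of the stalk that recruits elongation factors, followed at 3541. Rpsa, the laminin receptor precursor that is also a small subunit protein, stood at 2812. Rpl23 and Rps29 stood at 2783 and 2566. Outside the level per kilobase, the member with most reads was Rpl4, a large protein that lines the exit tunnel, at 2942 CPM.

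At the other end, Rpl10l, Rpl26, Rpl39l and Rps4l had 0 reads in all 8 libraries, each of which allows up to 0.0776 CPM or less. Rpl10l, Rpl39l and Rps4l are relatives of Rpl10, Rpl39 and Rps4x that are known mainly from the germ line or other restricted tissues, whereas Rpl26 is a core protein at the tunnel exit. Other core members were also nearly empty. Rps27 ran from 0.589 to 0.906 CPM, Rpl34 from 0.846 to 1.42 CPM and Rpl30 from 0.0466 to 0.363 CPM. Rpl3l, the striated muscle relative of Rpl3, ran from 0.183 to 0.351 CPM. Rpl29 averaged 66.1 CPM, or 138 CPM per kilobase. All 8 of the members under 5 CPM are thus either relatives with a restricted pattern or core proteins whose genes held almost no reads.

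**Figure D1:**
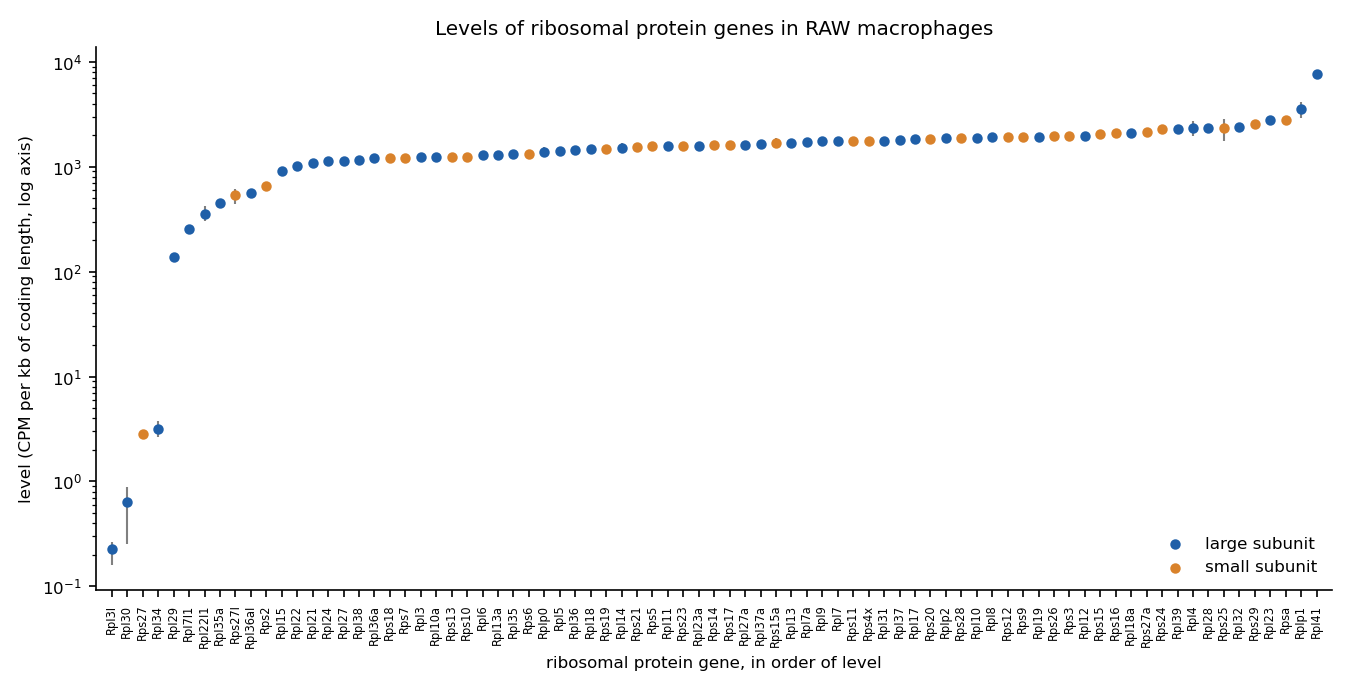
Levels of 79 of the 80 ribosomal protein genes with reads (1 is not reported by name) and an annotated coding length, in CPM per kilobase of coding length on a log axis, in order of level. Points are means over 8 libraries, coloured by subunit, and lines span the 4 group means; Rpl3l, Rpl30, Rps27 and Rpl34 lie below 4, while the middle 50% of the 76 genes with at least 5 CPM runs from 1245 to 1931.

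These low values belong beside the family's sequence copies. In the GENCODE M21 transcripts, 80 of 83 annotated members shared at least 1 stretch of 50 bases with a transcript of another gene, and for 67 the closest such gene was a pseudogene. The median member shared 49.1% of its stretches, and 40 shared over 50%. Rps27 shared 98.7%, all with Rps27rt, which had 0 reads in every library as well. Rpl26 shared 71.3%, Rpl29 66.6%, Rpl30 47.8% and Rpl34 37.9%. Rpl34-ps1, the closest copy of Rpl34, also had 0 reads. Rpl10, at 1218 CPM, shared 92.1%. Across the 76 members with at least 5 CPM, the share correlated with the log2 level per kilobase at a Spearman's rho of -0.317, a description over genes that are counted in the same libraries. The sources used here do not say how reads with several matches were assigned. The levels of members with near-identical copies are therefore uncertain, and the part of these copies in the low values was not tested. Members whose exons overlap a gene of the opposite strand by over 20% are uncertain too, because the use of the strand in counting is not given: Rpl35, Rpl23a, Rpl31, Rps25, Rpl5 and Rpl30.

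The family lies on 19 chromosomes, with most members (14) on chromosome 7. A gene for a small nucleolar RNA, which guides chemical marks on ribosomal RNA, lies inside 29 of the 83 placed members.

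The first question was whether these genes changed when MCD removed cholesterol from resting cells. The family was slightly and broadly lower. The members' share of all reads in genes was 6.33% and 6.54% in the ctl libraries and 6.13% and 6.05% in the MCD libraries, so the groups did not overlap. Their 95% Wilson intervals were no wider than 6.54 to 6.55% for the highest library and cover counting error only. Group means were 6.44% ± 0.151 for ctl and 6.09% ± 0.0611 for MCD (SD, n = 2). With 2 libraries against 2, an exact permutation test cannot go below a two-sided p of 0.333, so the shares are described without a test. The MCD mean was lower by 0.348 percentage points, and the difference was -0.455 without ctl replicate 1 and -0.241 without ctl replicate 2. The ctl libraries differed along the family, since only 4 of 80 tested members had a higher CPM in ctl replicate 1 than in ctl replicate 2. A share is relative, and in bulk samples fewer cells of a type and less RNA per cell cannot be told apart.

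**Figure D2:**
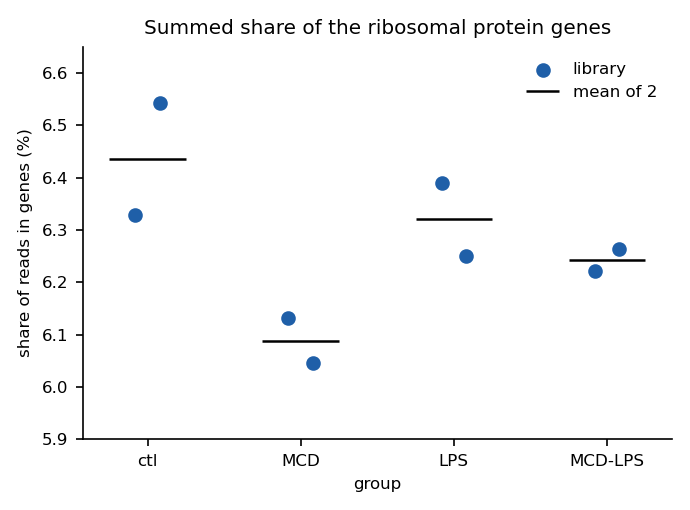
Summed share of the 84 ribosomal protein genes in the reads of each library (percent of reads in genes; the axis starts at 5.9), by group. Points are libraries and bars the mean of 2; the MCD libraries, at 6.13% and 6.05%, lie below the ctl libraries, at 6.33% and 6.54%.

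Of the 84 members, 80 passed the filter on low values (at least 10 in 2 of 4 libraries) in the table of ctl and MCD. The median log2 change of these 80 was -0.0739, against -0.00182 over all 11777 genes tested. The change was below 0 in 77 members. Adjusted p was under 0.05 for 9 members, all lower, which is 9 of 80 beside a background of 0.976% of all genes called lower. No member was called higher by limma, edgeR or DESeq2, beside 3.82% of all genes. None was higher at an unadjusted p under 0.05 by limma, beside 10.1% of all genes. At that unadjusted threshold 40 members were lower, beside 7.06% of all genes. In 70 of 80 members both MCD libraries lay below both ctl libraries, beside 23.9% of all genes, and in 1 member, Rpl3l, they lay above, beside 24%.

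All of the 9 called members changed by little. Rps25, a protein of the small subunit head that is known for its need in initiation at viral entry sites, had 32828 and 34103 normalised counts in ctl and 30588 and 29863 in MCD. The groups did not overlap, and the log2 change was -0.15 ± 0.0349 (SE, limma, adjusted p = 0.0207). Rpl35a, a large subunit protein mutated in some patients with Diamond-Blackfan anaemia, had 6639 and 6865 normalised counts in ctl and 6105 and 6034 in MCD. Its log2 change was -0.15 ± 0.0366 (limma, adjusted p = 0.0212). For Rpl39, a very short protein in the wall of the exit tunnel, the values were 16534 and 17115 in ctl against 15355 and 15268 in MCD. The fall was 0.14 on the log2 scale (SE 0.0342, limma, adjusted p = 0.0291).

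Rpl12 forms the base of the stalk. It had 46295 and 48169 normalised counts in ctl and 43249 and 42854 in MCD, again with no overlap (log2 change -0.13 ± 0.0350, limma, adjusted p = 0.0369). Rps27l, the paralog of Rps27, had 5483 and 5873 in ctl and 5145 and 5084 in MCD (log2 change -0.15 ± 0.0405, adjusted p = 0.0433 by limma). The remaining 4 were small subunit proteins. Rps15a fell by 0.13, Rps21 by 0.13, Rps12 by 0.13 and Rps7 by 0.13 on the log2 scale, with adjusted p of 0.0323, 0.0389, 0.0384 and 0.0404 (limma). Small subunit proteins were thus 6 of the 9, from 31 tested, and large subunit proteins 3, from 49 tested; whether the subunits differ was not tested. Their medians were -0.085 and -0.0699.

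The rest of the family ran from near 0 to just short of the threshold. Stalk proteins Rplp0, Rplp1 and Rplp2 had log2 changes of -0.05, -0.08 and -0.10, and none passed the test. Rpl5 and Rpl11, which carry the smallest ribosomal RNA into the large subunit and can bind Mdm2, had -0.10 and -0.06. Rps6, the classical substrate of S6 kinase, had -0.06, Rps27a, made as a fusion with ubiquitin, -0.09, and Rpsa -0.04. Of the proteins around the mRNA entry and decoding site, Rps2 had -0.000319, Rps3 -0.10, Rps15 -0.04 and Rps23 -0.08. In or around the exit tunnel Rpl4 had -0.01, Rpl17 -0.11, Rpl23a -0.06 and Rpl35 -0.12. Rpl22 had -0.10. None of these passed the test.

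**Figure D3:**
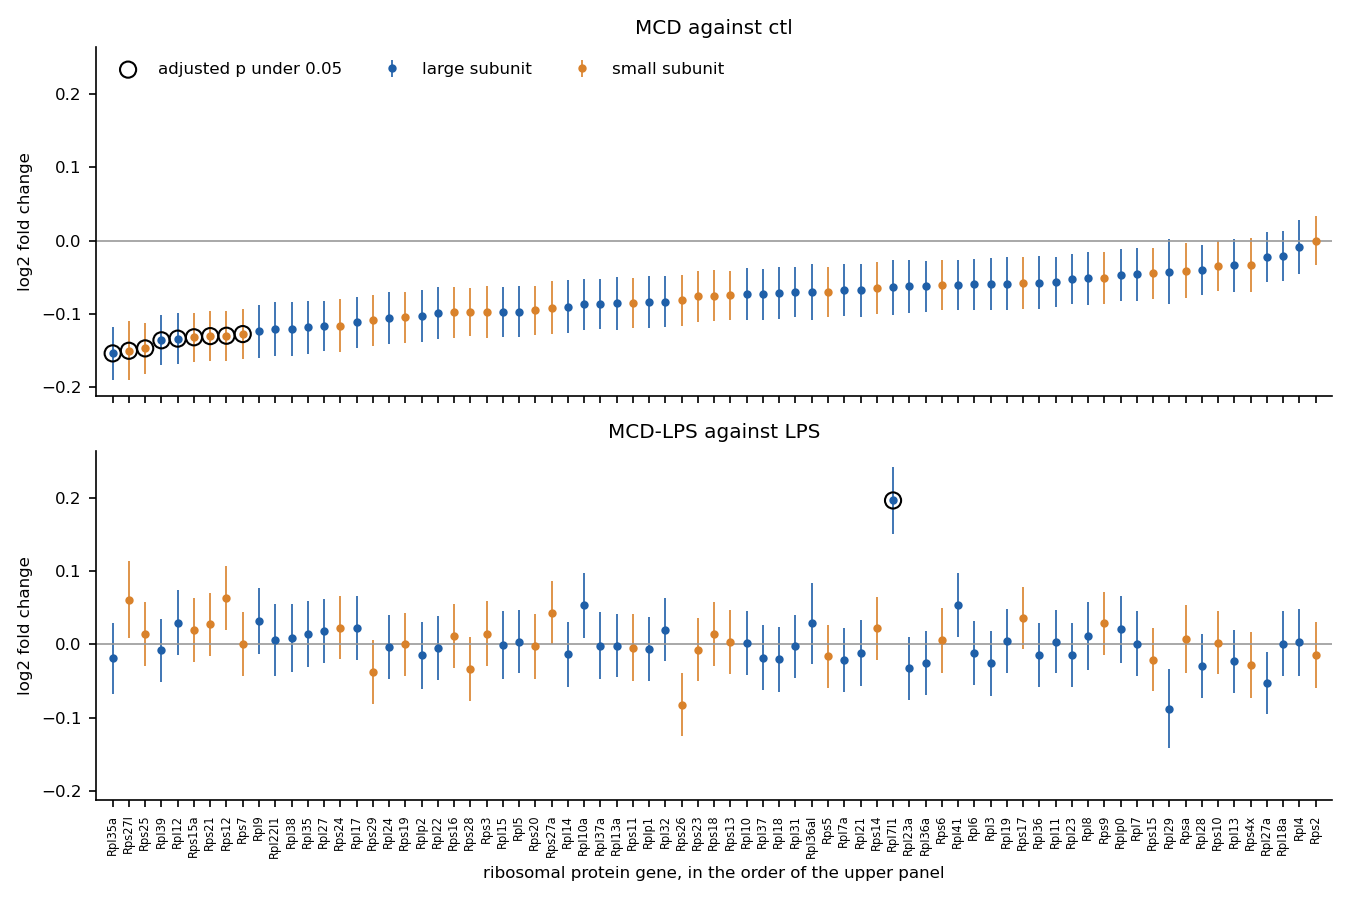
Log2 fold change of 75 of the 76 ribosomal protein genes with at least 5 CPM (1 is not reported by name), with its standard error, for MCD against ctl (upper panel) and MCD-LPS against LPS (lower panel); genes are in the order of the upper panel, colours mark the subunit and rings an adjusted p under 0.05. All 75 changes drawn are below 0 in the upper panel, where the 9 at the left are ringed, and the lower panel scatters around 0 with Rpl7l1 ringed at 0.20.

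The 9 calls depended on the fit and on single libraries. Without MCD replicate 1 and without MCD replicate 2 no member was called, without ctl replicate 1 there were 46 lower and without ctl replicate 2 there were 8. In a fit of all 8 libraries with a shared spread there were 0.

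The change followed coding length, and it did so outside the family too. Across the 76 members with at least 5 CPM, the log2 change with MCD correlated with coding length at a Spearman's rho of 0.451 and a Pearson's r of 0.472. Across 10733 other tested genes the Spearman's rho was 0.323 and the Pearson's r 0.0894. These describe genes of the same 4 libraries. The 9 called members had a median coding length of 375 bases, against 468 for those not called. Members of up to 300 bases had a median change of -0.108 (9 genes) and other genes of that length -0.0843 (206 genes). Over 300 and up to 600 bases the medians were -0.0811 (45 members) and -0.0471 (1153 other genes), and over 600 and up to 900 bases -0.0674 (19 members) and -0.0264 (1497 other genes). Above 900 bases the other genes had a median of 0.0139. A short coding length went with a lower value in other genes as well, and within each of these classes the members lay lower than the others.

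The share of other genes called lower by limma fell over the same classes, from 3.88% to 2.60%, 1.34% and 0.432%. The members called lower were 3 of 9, 6 of 45, 0 of 19 and 0 of 3. Coding length also went with the difference between the ctl libraries. Across the same 10733 genes, ctl replicate 1 minus ctl replicate 2 correlated with length at a Spearman's rho of 0.290, while for the MCD libraries it was 0.00391. When the trend with length, taken from genes outside the family, was removed from each library, the members' median was -0.0290 and no member was called lower. Rps7 then had -0.09 (adjusted p = 0.0813, limma) and Rpl39 -0.03 (adjusted p = 0.656). What gave the trend with length was not tested.

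**Figure D4:**
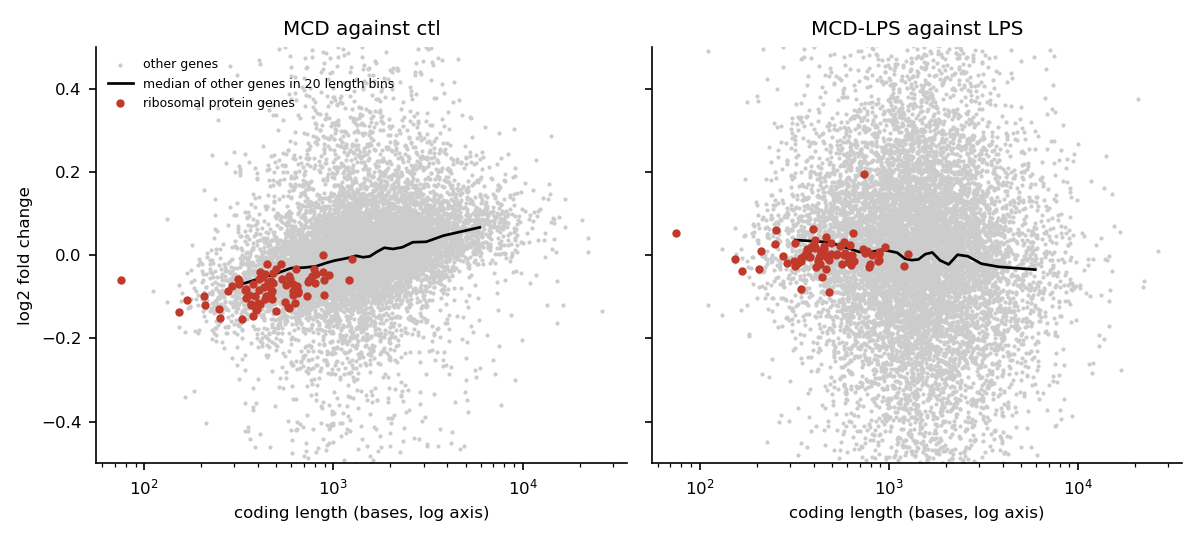
Log2 fold change against coding length in bases (log axis) for MCD against ctl (left) and MCD-LPS against LPS (right). Red points are the 76 ribosomal protein genes with at least 5 CPM, grey points other tested genes and the black line their median in 20 bins of length; changes beyond 0.5 in size are not drawn, and the line rises with length on the left, where the members lie at its low end.

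Genes of related function were compared with the same fit. Rps3a1, Fau and Gnb2l1 encode ribosomal proteins whose symbols the rule does not take. Their log2 changes with MCD were -0.09, -0.05 and -0.05, and none passed the test. Together with elongation and initiation factors whose mRNAs carry TOP motifs, 20 tested genes of the fixed list of 22 had a median of -0.0479, with none called by limma and 5 lower at an unadjusted p under 0.05. Proteins of the mitochondrial ribosome, a separate machine with its own set of nuclear genes, had nearly the same median as the family, at -0.0728. The change was below 0 in 72 of these 77 genes, and 2 were called lower, Mrpl13 (-0.17, adjusted p = 0.0373) and Mrps6 (-0.17, adjusted p = 0.0222, both by limma). Ribosome biogenesis factors had a median of -0.00911 over 48 tested genes. Their 1 call was the nucleolar factor Rrs1, which rose by 0.22 (adjusted p = 0.00270 by limma). At an unadjusted p under 0.05 by limma, 5 biogenesis factors were lower and 2 higher. At that threshold 18 mitochondrial ribosome genes were lower and 0 higher. The coding lengths of these lists were not compared, and the part of length in their medians was not tested. A fixed list for the control of TOP mRNAs, with genes such as Mtor, Larp1 and the S6 kinases, had 22 tested genes and 1 call. It was Zfp36, an LPS-induced gene that promotes mRNA decay, at 2.85. Its place on the list does not show that it acts on TOP mRNAs, and no other gene of the list was called.

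The second question was whether the family differed between MCD-LPS and LPS. It hardly did. The share of reads was 6.39% and 6.25% in the LPS libraries and 6.22% and 6.26% in the MCD-LPS libraries, and these ranges overlapped. The group means were 6.32% ± 0.0997 and 6.24% ± 0.0291 (SD, n = 2). Of 79 members that passed the filter, the median log2 change was 0.000752, against 0.00258 over all 11976 genes, and 36 were below 0. One member was called higher, 1 of 79 beside 6.84% of all genes, and none lower by limma, edgeR or DESeq2, beside 8.12%. At an unadjusted p under 0.05 there was 1 higher and 0 lower by limma, beside 15.3% and 15.7% of all genes. Both MCD-LPS libraries lay above both LPS libraries in 17 members and below in 13, beside 30.3% and 30.4% of all genes. The standard errors of the members' log2 changes had a median of 0.0439.

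The called member was Rpl7l1, a relative of Rpl7 whose yeast counterpart acts in assembly of the large subunit. It had 6790 and 6948 normalised counts in LPS and 7852 and 7886 in MCD-LPS, with no overlap. The log2 change was 0.20 ± 0.0462 (SE, limma, adjusted p = 0.0308). It was lost without LPS replicate 1 and without either MCD-LPS library, where adjusted p was 0.0528 to 0.209 and the change 0.18 to 0.20. Rpl7 itself had a log2 change of 0.000713. Ribosome biogenesis factors as a list lay higher, with a median of 0.163 over 48 genes, 11 called higher and 1 lower. The lower one, named after its value was seen, was Rexo4 at -0.32 (adjusted p = 0.0207, limma). The largest of the higher ones were Rrs1 at 0.47, the kinase Riok1 at 0.47, Nop58 of the methylation guide complexes at 0.43 and Wdr43 at 0.43, with adjusted p of 0.00343, 0.00591, 0.00341 and 0.00455 (limma). The mitochondrial ribosome list had a median of 0.0335, with none of 77 genes called by limma and 3 past an unadjusted p of 0.05 (2 higher, 1 lower). The translation factor list had a median of 0.000498 and none past either threshold. In the fixed list for the control of TOP mRNAs, 2 genes were called higher. They were the RNA-binding protein Cnbp at 0.27 (adjusted p = 0.0118) and the helicase Eif4a1 at 0.19 (adjusted p = 0.0325, both by limma).

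The difference between the 2 effects of MCD was tested in all 8 libraries. Most members had a less negative change under LPS. LPS came with a longer time since MCD and with the other set of libraries. The parts of these 3 in the difference cannot be told apart, and none was tested alone. The median difference was 0.0782 over 79 members, against 0.0107 over all 11545 genes, and it was below 0 in 6 members. The shift was not particular to the family. Its median was 0.0918 over 77 mitochondrial ribosome genes, 0.149 over 48 ribosome biogenesis factors and 0.0518 over 20 of the translation factor list. Over 300 and up to 600 bases of coding length it was 0.0875 in members with at least 5 CPM and 0.0892 in other genes. Up to 300 bases the medians were 0.114 and 0.105. For over 600 and up to 900 bases they were 0.0663 and 0.0407, and above that 0.0332 and -0.0169. Adjusted p was under 0.05 for 2 members, both higher under LPS, beside 7.12% of all genes called higher, and for none lower, beside 9.99%. Rpl7l1 differed by 0.26 ± 0.0568 (limma, adjusted p = 0.0147). Rps12, a small subunit protein, differed by 0.19 ± 0.0513 (limma, adjusted p = 0.0308). It shared 83.2% of its stretches of 50 bases with Rps12-ps3, so its counts carry the uncertainty of the copies named above. Its values were 36204 and 36866 normalised counts in ctl, 33894 and 32908 in MCD, 29622 and 29490 in LPS, and 30371 and 31398 in MCD-LPS. It lay below the untreated group at rest and above the LPS group under LPS, with no overlap in either table. With the length trend removed Rpl7l1 differed by 0.22 (adjusted p = 0.0180) and Rps12 by 0.10 (adjusted p = 0.166), and the median difference was 0.00830. No member was called without ctl replicate 2 or without MCD replicate 1. Leaving out ctl replicate 1, MCD replicate 2 or MCD-LPS replicate 2 gave 1 call each, and leaving out LPS replicate 1 gave 4. At an unadjusted p under 0.05, 21 members were higher and none lower by limma, beside 15.9% and 16.7% of all genes.

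LPS was not tested against ctl. The column names place all libraries without LPS under one prefix and all libraries with LPS under another, and the 2 sets are in separate tables. LPS and the set of libraries therefore cannot be told apart in any level or ratio below, and CPM from the reads of each library are set side by side with no test. The family moved less than other genes. The log2 ratio of mean CPM, LPS over ctl, had a median of -0.037 in 79 members, and the middle 50% ran from -0.115 to 0.0391. Over 11545 genes the median was -0.06 and the middle 50% ran from -0.396 to 0.363. A ratio past 0.2 in size was found in 14 members (17.7%) and in 71.7% of all genes. Both LPS libraries lay above both ctl libraries in 19 members and below in 38, beside 38.4% and 47.5% of all genes. For MCD-LPS beside MCD, 41 members lay above and 23 below, beside 37.5% and 49.7% of all genes. The summed macrophage markers were higher with LPS as well, at 13702 to 14582 CPM against 10190 to 10807 CPM without it, and their part in these levels was not tested.

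A few members stood apart. Rps25 had 724 and 750 CPM in ctl, 671 and 653 in MCD, 1077 and 1059 in LPS, and 1069 and 1057 in MCD-LPS. Every library with LPS was above every library without it. Rpl4 had 2432 and 2503 CPM in ctl and 2443 and 2438 in MCD, and then 3495 and 3404 in LPS and 3383 and 3436 in MCD-LPS. Rplp1 went from 1047 and 1090 in ctl to 1417 and 1381 in LPS, and was at 1374 and 1374 in MCD-LPS.

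Rps27l was the other member with at least 5 CPM and a log2 ratio above 0.2, with 121 and 129 CPM in ctl and 149 and 148 in LPS. The reverse was clearest for Rpl22l1, the paralog of the RNA-binding protein Rpl22. It had 153 and 157 CPM in ctl, 144 and 139 in MCD, 113 and 113 in LPS, and 112 and 111 in MCD-LPS. Rplp0, the largest stalk protein, was lower by 0.25 on the log2 scale, and Rpl8, Rps15a, Rpl7l1, Rpl14 and Rpl3 by 0.23 to 0.25. Rpl30 had 0.363 and 0.251 CPM in ctl and 0.0466 and 0.129 CPM in LPS and failed the filter in the LPS table, at so few reads that no ratio is given.

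**Figure D5:**
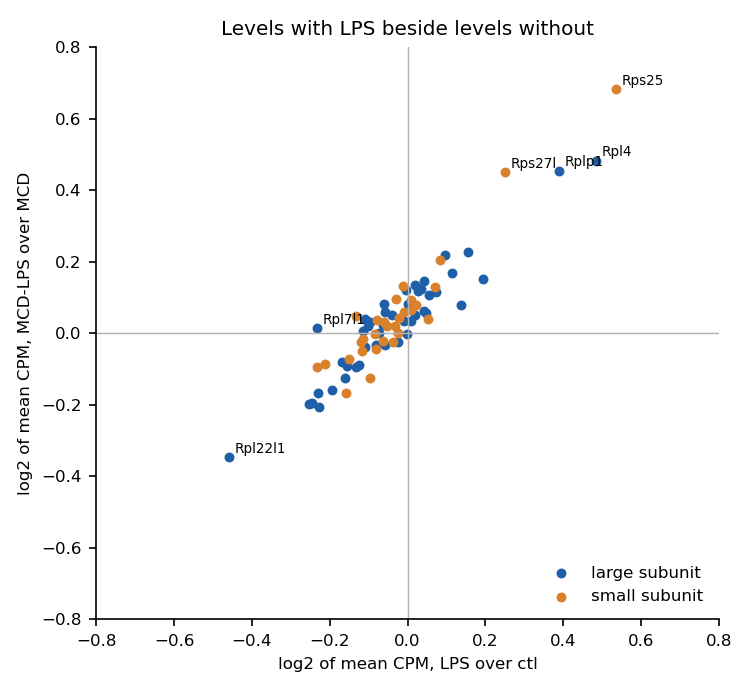
Log2 ratio of mean CPM, LPS over ctl (horizontal) and MCD-LPS over MCD (vertical), for the 76 ribosomal protein genes with at least 5 CPM, coloured by subunit; the ratios cross tables that were normalized separately and carry no test. Rps25, Rpl4, Rplp1 and Rps27l lie at the upper right and Rpl22l1 at the lower left, while most genes lie within 0.2 of 0 on both axes.

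Because members of one complex were measured together, their ratios within a library do not depend on the scaling. Per kilobase of coding length, Rplp1 stood to Rplp2 as 1.61 and 1.59 in ctl, 1.62 and 1.62 in MCD, 2.18 and 2.23 in LPS, and 2.22 and 2.22 in MCD-LPS. Their proteins pair with each other on the stalk, and the ratio was higher in every library with LPS than in any without it. Rplp2 to Rplp0 ran from 1.23 to 1.29 without LPS and from 1.41 to 1.46 with it. Rpl22l1 to Rpl22 was 0.399 to 0.414 without LPS and 0.298 to 0.301 with it. Rpl36al to Rpl36a ran from 0.445 to 0.488 with overlapping groups, and Rpl7l1 to Rpl7 was 0.135 and 0.142 in LPS and 0.157 and 0.160 in MCD-LPS. These ratios carry the uncertainty of the copies named above, and Rplp1 shares stretches with Gm10073.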

How the data were processed

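RNA of 8 libraries was depleted of ribosomal RNA with Ribo-Zero and prepared with a stranded kit. The build mm10 and the tools STAR 2.5.3, HTSeq 0.9.1 and DESeq2 1.18.1 come from the submitters' processing notes. The study's methods name a different quantifier, and which of them made the tables is not settled. The deposited values per library are a signal, gene counts that the authors divided by a size factor within each table, and the mean signal per gene is deposited for other libraries. That the ctl and LPS samples are the libraries that share tables with MCD is an inference. The authors' fold changes and p-values were not used, nor were 12 columns of other libraries. All values (100%, within 0.01) were whole multiples of the value of 1 read, so reads and CPM were recovered.

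limma 3.58.1 (R 4.3.3, with trend) was fitted to log2(value + 1), which understates changes of low genes, over genes with at least 10 in 2 libraries, per table (the difference in all 8 libraries). Tests were two-sided with Benjamini-Hochberg adjustment over all genes. edgeR 4.0.16 and DESeq2 1.42.0 were run on the recovered reads. The fits were tested on simulated data. Coding length was that of the principal GENCODE M21 transcript, and its trend was a lowess curve (span 0.3), chosen after seeing the data. Named genes were members that failed the filter, were called, had extreme levels per kilobase or fixed roles, and up to 4 called genes of each other list. Members and lists were chosen with earlier results of these data known. Alternatives covered the pseudocount, filter, scaling, tool, replicate block and leaving out each library. Some genes are counted in the totals but not reported by name here.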

Additional observations from a re-analysis of the deposited data

Results flagged for a closer look

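Rpl7l1 and Rps12 were flagged because the effect of MCD differed between cells given LPS and cells at rest by the test of the difference itself, by 0.26 and 0.19 on the log2 scale (limma, adjusted p = 0.0147 and 0.0308). At rest Rpl7l1 had -0.06 and was not called, and under LPS it had 0.20. Rps12 had -0.13 at rest and 0.06 under LPS. With the length trend removed Rps12 differed by 0.10 (limma, adjusted p = 0.166). These are 2 calls among 79 members, beside 7.12% of all genes called higher. The time since MCD and the set of libraries differ along with LPS and cannot be told apart from it. Over the alternative settings Rpl7l1 kept its call in 17 of 19 and Rps12 in 13 of 19.

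Rpl39l and Rps4l were flagged because a signal appeared in data outside the comparisons. Both had 0 reads in all 8 libraries. In the table of macrophages grown from bone marrow, the authors' mean, scaled like CPM, was 4.83 for Rpl39l and 5.49 for Rps4l. Both were at 0 in the table of a second set of RAW libraries, and in the table of RAW cells given statin they were at 0.00742 and 0.00487.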

How the results depend on the processing

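For MCD against ctl, DESeq2 called 7 members lower. It did not call Rps21 (adjusted p = 0.0508, DESeq2) or Rps27l (adjusted p = 0.111, DESeq2). In the main limma fit, 9 members were called lower. The number was 0 with no filter, 0 in the fit of all 8 libraries, 0 with the coding length trend removed (added after seeing the data), 14 with scaling to total reads without the members and 20 with the replicate block, and it ran from 0 to 46 over the fits that leave out a library. The median stayed below 0 in each of these settings, from -0.103 to -0.0290. For MCD-LPS against LPS, the 1 member called higher was 0 with no filter and 0 to 1 without single libraries, and the members' median ran from -0.0204 to 0.0158. For the difference, the 2 members were 1 with the length trend removed and 0 to 4 without single libraries. The share difference for MCD minus ctl, -0.348 percentage points, ran from -0.455 to -0.241 without single libraries. For MCD-LPS minus LPS, -0.0773, it was -0.00682 without LPS replicate 1 and -0.148 without LPS replicate 2.

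Over all genes, 565 calls for MCD against ctl were 141 with no filter, 330 by DESeq2, 998 with the block, 131 in the fit of all 8 libraries and 1149 without ctl replicate 1. The 1791 for MCD-LPS against LPS were 547 with no filter, 3099 in that fit and 430 to 631 without either MCD-LPS library. The 1975 for the difference were 821 to 1181 without single ctl or MCD libraries or MCD-LPS replicate 2. No called member changed sign in these settings, and the cause of the moves was not tested. The labels give no shared culture or day for a replicate number. Same-numbered deviations correlated at 0.0370 (ctl and MCD) and 0.0365 (LPS and MCD-LPS) over all genes, and at 0.113 and 0.845 over the members. These members include Rps27, Rpl34 and Rpl3l, which had few reads and were higher in replicate 2 of both LPS and MCD-LPS. Rps27 had 25.2 and 36.5 normalised counts in LPS and 24.1 and 30.3 in MCD-LPS. The correlation without such genes was not computed. With 2 pairs and no such label, the numbers were not taken as pairs.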

Other observations

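The authors' means of the other tables are set beside the 8 libraries as values only, since treatments differ. By their names, the marrow table pools LPS-treated cells with and without acLDL, and each RAW table pools cells with and without LPS. The members held 2.05% of the summed mean in macrophages grown from bone marrow. They held 5.67% in a second set of RAW libraries and 4.71% in RAW cells given statin. No SD is given, since only the pooled means were used. Over 76 members with at least 5 CPM, the log2 levels in the RAW tables correlated with those of the 8 libraries at a Pearson's r of 0.981 and 0.979, and in marrow at 0.885. The points share the gene models. The ratio to the 8 libraries was lowest in marrow for Rpl4, Rpl10a and Rpsa, at -2.36, -2.36 and -2.33 on the log2 scale, and nearest to 0 for Rpl35a at -0.11. Rpl26 was at 0 in every table, and Rps27, Rpl30 and Rpl34 were at 0.174, 0.136 and 0.667 in marrow, scaled like CPM, and at most 1.08 in both RAW tables.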
